A study of Mus musculus with 12 samples.

Results

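The neutrophil load gradient is the ordering of mice of one genotype by the amount of S100a8 and S100a9 RNA in their colon, together with the genes that follow that ordering. Its members were all 12 libraries of the series. The genes that follow were chosen by their r values. For each library a score was taken as the mean of the S100a8 and S100a9 levels, each as log2(CPM + 1), where CPM is a gene's count divided by the library's total and scaled to the usual common total. The mean of each genotype was then subtracted from the score and from every gene, and genes were ranked by Pearson's r with the score over the 12 libraries. Of 21899 genes in the table, 13928 had a mean of at least 1 CPM and were ranked, S100a8 and S100a9 being left out. The ranking describes which genes moved with the score between mice of the same genotype. Its r values chose the genes, so they are given as a description with no test.

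The mice came from 2 groups, knockouts and littermate controls. All drank 2.5% DSS (dextran sulfate sodium), a sulfated polysaccharide that damages the epithelium of the colon and sets off colitis, over 7 days. In the 6 knockout mice Pck1, which encodes an enzyme of gluconeogenesis, had been deleted specifically in the epithelial cells of the intestine; the labels name these mice CKO. The 6 control mice are labelled WT. RNA was taken from colon tissue, so every library mixed epithelium, muscle, vessels, nerves and infiltrating cells. The labels used here give no strain, Cre driver, age or sex, and no mice without DSS were analysed here.

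S100A8 and S100A9 form calprotectin, a metal-binding protein that fills much of the neutrophil cytosol and whose level in stool is a clinical measure of gut inflammation. Neutrophils leave the blood through activated venules, guided by ELR-type CXC chemokines that bind the receptor CXCR2, and carry granules of proteases and antimicrobial proteins. Monocytes and stratified squamous epithelium can also make S100A8 and S100A9.

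Libraries held between 15348192 and 19138507 counts. Pck1 (ENSMUSG00000027513), the deleted gene, lay between 35.3 and 80.0 CPM in controls (median 46.4) and between 2.41 and 6.93 CPM in knockouts (median 3.47), so the groups did not overlap. Pancreatic enzyme genes, which the colon does not make, differed widely between libraries. The 12 genes of that list summed to between 79.6 and 36088 CPM in controls and between 43.8 and 2713 CPM in knockouts. Their r with the score lay between 0.15 and 0.31 over both genotypes. The median r was 0.61 in controls alone and -0.33 in knockouts alone. The part of pancreatic tissue in the ranking was not tested. The centred score had r = -0.22 with the library total (Spearman's rho = -0.19) and r = -0.09 with the share of mitochondrial counts (rho = -0.10). Without control 4 and knockout 2, r was 0.01 and 0.29. This pair lay farthest from the median of the centred score. Each had the highest score of its group, so the fifth libraries, lowest in their groups, stayed in. With the number of genes detected, 16335 to 16649 per library, the centred score had r = 0.65 and rho = 0.71 (r = 0.70 without the same pair). Over all 518400 arrangements of the score within genotypes, permutation tests of these 3 measures gave two-sided p = 0.513, 0.784 and 0.0307 for r, adjusted to 0.769, 0.784 and 0.0922, and p = 0.574, 0.781 and 0.0145 for rho, adjusted to 0.781, 0.781 and 0.0436. The part of the number of detected genes in the ranking was not tested.

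Within each genotype the score spread widely. S100a8 (ENSMUSG00000056054) ran from 4.31 to 83.2 CPM in controls (median 12.6) and from 21.98 to 239 CPM in knockouts (median 86.6). S100a9 (ENSMUSG00000056071) ran from 8.34 to 172 CPM in controls (median 26.4) and from 35.7 to 358 CPM in knockouts (median 135). Control 5 was lowest and control 4 highest among controls, knockout 5 lowest and knockout 2 highest among knockouts, and the groups overlapped. The centred levels of the 2 genes had r = 0.996 with each other. On the log2 scale the score was 4.48 ± 1.45 (SD, n = 6) in controls and 6.60 ± 1.44 (SD, n = 6) in knockouts. In terms of CPM + 1, its range was 17.1-fold among controls and 10.1-fold among knockouts. The score was higher in knockouts by 2.11, and an exact two-sided permutation test over all 924 arrangements gave p = 0.0303. That difference lost its call when any one of 6 libraries was left out (controls 1, 2 and 5, knockouts 1, 2 and 3), where p lay between 0.0584 and 0.0649. In bulk tissue, more cells of a type and more RNA per cell cannot be told apart, so a higher score is a level of RNA in the tissue and not a count of neutrophils. All p-values measure the spread between these mice.

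**Figure D1:**
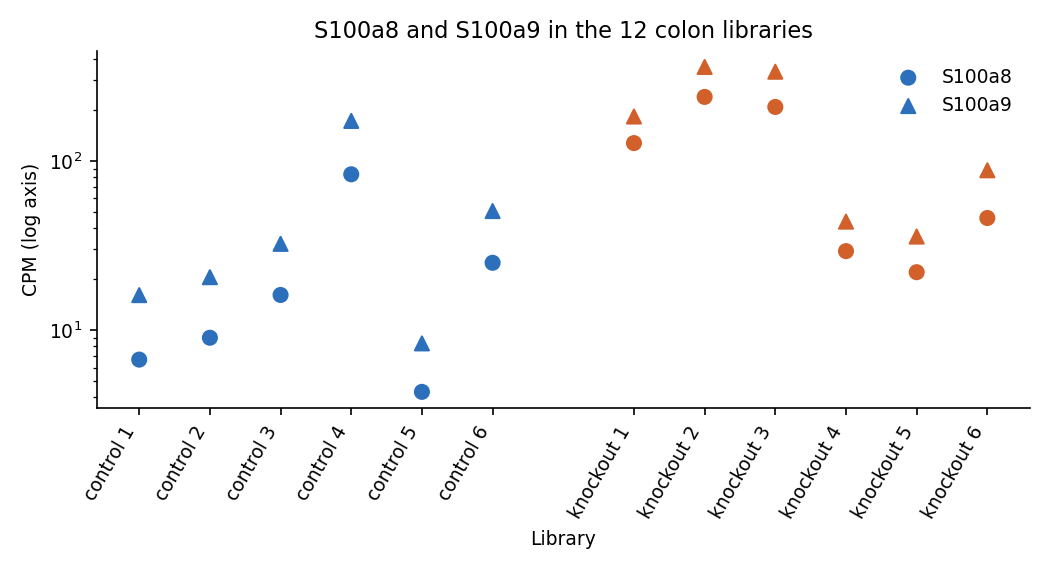
Level of S100a8 (circles) and S100a9 (triangles) in CPM on a log axis for each of the 6 control (blue) and 6 knockout (orange) libraries. For both genes control 4 lies between the 3 lower and the 3 upper knockouts, and knockouts 4 and 5 lie between control 3 and control 4.

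At r of at least 0.8 there were 313 genes, 2.25% of the ranked genes, and at r of at most -0.8 there were 69, or 0.495%; the median r of all ranked genes was -0.04. Sfrp1 (r = 0.8001) and Wdr48 (r = -0.8009) lay just inside these limits, and Prdx5 (r = 0.7999) and Repin1 (r = -0.7982) just outside. Sirpd at 1.0022 CPM was the lowest gene ranked, and Foxo6 at 0.994 CPM the highest left out. The slope of a gene is its change on the log2(CPM + 1) scale per unit of score. At a slope of 1, a gene's CPM + 1 doubled with each doubling of CPM + 1 of S100a8 and S100a9. The libraries, their totals and the shared group means are common to every r, and genes are not independent of one another.

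Neutrophil genes led the ranking. Retnlg (ENSMUSG00000022651), a resistin-like protein of neutrophils, had the highest r, 0.98 (rho = 0.94, and 0.96 without control 4 and knockout 2), with a slope of 1.003 ± 0.07 (SE). It ran from 1.496 to 36.0 CPM in controls (median 6.68) and from 7.53 to 122 CPM in knockouts (median 28.3). Like the score it was lowest in the fifth library of each group and highest in control 4 and knockout 2. Mmp8 (ENSMUSG00000005800), the collagenase of neutrophil granules, ran from 1.496 to 37.2 CPM in controls (median 3.25) and from 6.85 to 150.4 CPM in knockouts (median 44.6), with r = 0.97 and a slope of 1.11 ± 0.09 (SE). Its extremes fell in the same 4 libraries. Lcn2, the siderophore-binding lipocalin that neutrophils and injured epithelium both make, ran from 11.7 to 132 CPM in controls (median 27.4) and from 124 to 1020.2 CPM in knockouts (median 221), with r = 0.96. Only control 4 reached the range of the knockouts for Lcn2.

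Of the 34 genes on the neutrophil list found in the table, 31 were ranked, and Elane, Mpo and Stfa1, 2 granule enzymes and a cysteine protease inhibitor, lay under 1 CPM. r was at least 0.8 for 21 of the 31, against 2.25% of all ranked genes, and the list's median r was 0.89 (range 0.83 to 0.94 over the other settings tried). Among them were receptors for formyl peptides (Fpr2, r = 0.94), for interleukin 1 as a decoy (Il1r2, 0.93) and for ELR-type chemokines (Cxcr2, 0.89), the activating receptor Trem1 (0.95), the histamine-forming enzyme Hdc (0.94) and the integrin subunit Itgam (0.92). Cxcr2 ran from 1.96 to 30.7 CPM in controls (median 5.18) and from 3.68 to 31.5 CPM in knockouts (median 23.1), so control 4 was as high as the upper knockouts. Alox5ap, needed to make leukotrienes, and Cd33, an inhibitory receptor of myeloid cells, were not on the list and had r = 0.95 each.

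Several genes used to mark neutrophils did not follow the score closely. Ly6g, the usual surface marker of mouse neutrophils, ran from 70.4 to 178 CPM in controls (median 92.2) and from 66.9 to 360.3 CPM in knockouts (median 160.02), with r = 0.55 (0.37 without control 4 and knockout 2). It was highest in control 4 and knockout 3 and lowest in knockout 6, and the groups overlapped. Cd177, a neutrophil surface protein, ran the other way, with r = -0.78: from 144 to 355 CPM in controls (median 229) and from 129.8 to 258 CPM in knockouts (median 199). Cd177 was lowest among controls in control 4, the control with the highest score. Pglyrp1, a peptidoglycan-binding granule protein, had r = -0.14, the NADPH oxidase subunit gene Cybb had r = 0.37, and Csf3r, the receptor for G-CSF, had r = 0.71 (0.44 without the same pair).

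The granule genes Ngp and Camp, which neutrophils transcribe while they mature, were nearly absent from most controls. Ngp ran from 0 to 4.09 CPM in controls (median 0.214) and from 0.374 to 159 CPM in knockouts (median 24.7), with r = 0.78. The control at 0 was control 1, where the 3 counts that a count of 0 allows correspond to 0.184 CPM. Camp stayed at or under 0.230 CPM in controls and reached 5.49 CPM in knockout 3, with r = 0.57. Knockouts 1, 2 and 3, the knockouts with the highest scores, held the highest levels of Ngp, and knockouts 2 and 3 those of Camp.

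Genes of the other cells that can hold S100a8 and S100a9 RNA gave a mixed picture. Of monocyte genes, Ly6c2 had r = -0.01 and Ccr2, the receptor that draws monocytes from the marrow, r = 0.38, while Chil3 (r = 0.93), a chitinase-like protein of myeloid cells, and Vcan (r = 0.73), a proteoglycan, were higher. Of the 26 monocyte and macrophage genes, 4 had r of at least 0.8, against 2.25% of all ranked genes. The median r of the 26 was 0.52 (0.22 without control 4 and knockout 2). These 26 genes summed to between 2723 and 4410.1 CPM in controls and between 3666 and 8627 CPM in knockouts. Saa3, an acute-phase apolipoprotein, led them with r = 0.94, running from 17.9 to 312 CPM in controls (median 72.8) and from 295 to 1762 CPM in knockouts (median 579.6). Only control 4 overlapped the knockouts. Of 16 squamous epithelial genes, 13 lay under 1 CPM, and Sprr3 and Ivl had no counts in any library. The squamous genes summed to between 195 and 279.6 CPM in controls and between 240.4 and 349 CPM in knockouts, mostly Sfn and Sprr1a. The part of monocytes and squamous epithelium in the score was not tested.

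**Figure D2:**
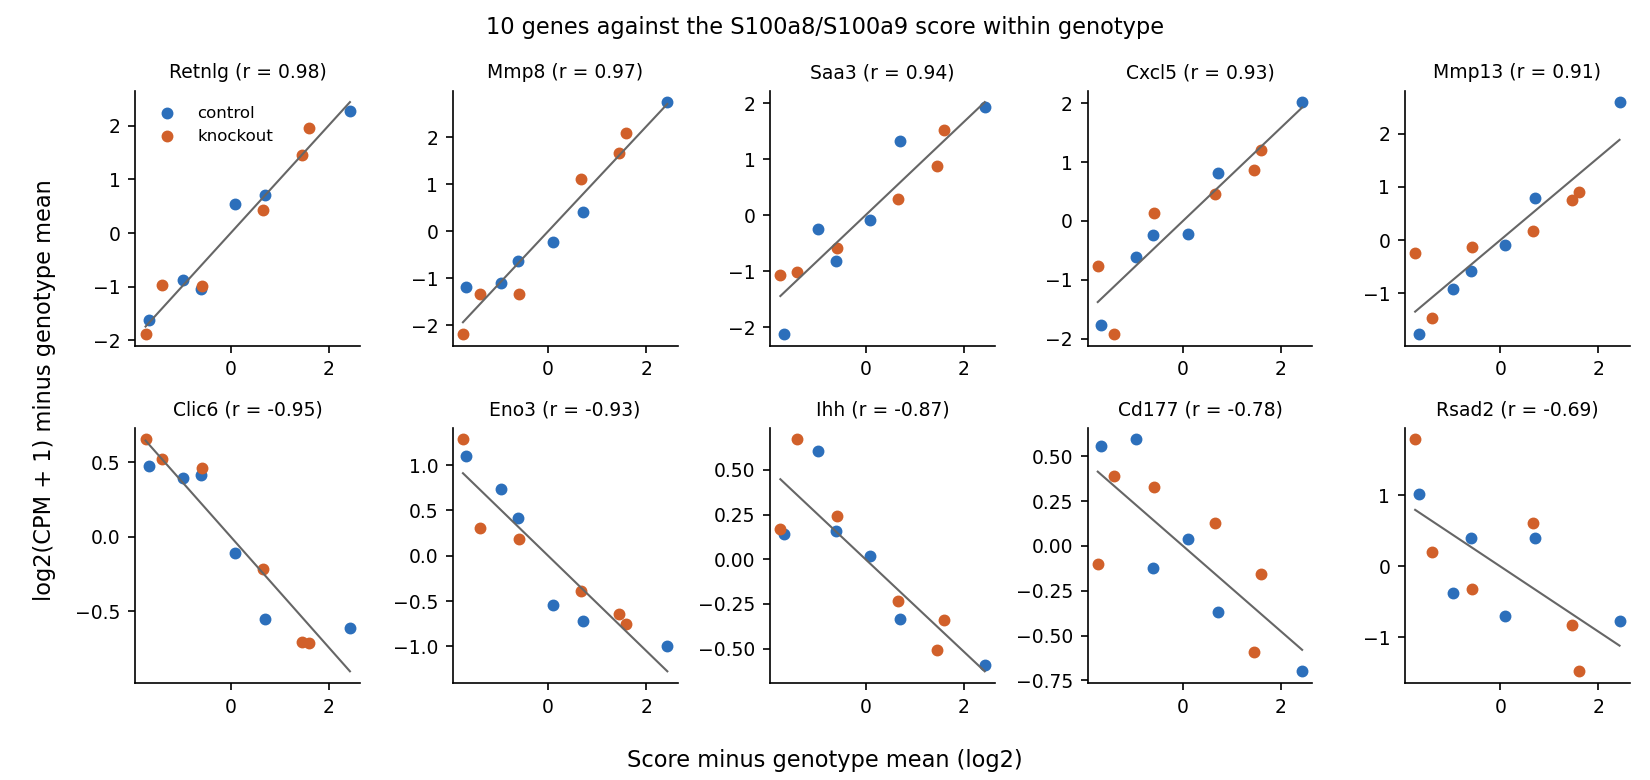
Level of 10 genes against the score, both minus the mean of the genotype, in control (blue) and knockout (orange) libraries. The grey line has the slope fitted over all 12 libraries. The points of Retnlg to Mmp13 slope upward in both genotypes, those of Clic6 to Ihh downward, and those of Cd177 and Rsad2 downward with more scatter.

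Several cytokine genes that act on neutrophils and on stroma had high r. Of 24 cytokine genes, 16 were ranked, with a median r of 0.76. Of the 16, 8 had r of at least 0.8, against 2.25% of all ranked genes. Csf3, which encodes the neutrophil growth factor G-CSF, had r = 0.90 and a slope of 0.96 ± 0.16 (SE), running from 0.230 to 8.12 CPM in controls (median 0.858) and from 2.09 to 61.1 CPM in knockouts (median 12.8). Il36g, an epithelial interleukin 1 family member, had r = 0.91, Osm, which acts on stromal cells, 0.88, and Il33, an alarmin, 0.87. Il1b ran from 21.5 to 148 CPM in controls (median 40.5) and from 68.3 to 335 CPM in knockouts (median 179), with r = 0.86 (0.74 without control 4 and knockout 2). Control 4 again lay within the knockouts for Csf3 and Il1b. Tnf, Ifng and Il18 did not share this pattern, with r = 0.20, 0.17 and -0.18. Il17a, Il17f, Il22, Il12b, Il23a, Csf2, Il24 and Il36a lay under 1 CPM and were not ranked.

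Among chemokines the ligands of CXCR2 stood highest. Cxcl5 had r = 0.93, Cxcl1 0.92, Cxcl2 0.92 and Cxcl3 0.91, with slopes between 0.72 and 0.80. Cxcl5 ran from 5.81 to 92.8 CPM in controls (median 18.8) and from 22.9 to 208 CPM in knockouts (median 111), Cxcl1 from 1.38 to 28.6 CPM (median 5.91) and from 10.4 to 109.003 CPM (median 49.2). Both were lowest in control 5 and knockout 4 and highest in control 4 and knockout 2. The eosinophil chemokine Ccl11 (r = 0.84) and the monocyte chemokine Ccl2 (0.84) also reached 0.8, as did Ccl9 and Cxcl12. The interferon-induced T cell chemokines Cxcl9 and Cxcl10 had r = 0.17 each, and the epithelial Ccl28 and Ccl20 had r = -0.50 and -0.49. In all, 8 of 26 ranked chemokine genes had r of at least 0.8, against 2.25% of all ranked genes. The median r of the 26 was 0.61.

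The promoters of Cxcl1, Cxcl2 and Cxcl3 are shown because these genes of one chromosome 5 cluster moved together and share a stretch of letters. The sequences are the 100 bases before the gene start, from RefSeq in build GRCm38.p6, all on the plus strand, at chr5:90891145-90891244 for Cxcl1, chr5:90903799-90903898 for Cxcl2 and chr5:90786001-90786100 for Cxcl3. Capitals mark the NF-kappaB motif, spelled GGGA, any base N, then TTTCC, which lies 71, 97 and 73 bases before the start.
Cxcl1: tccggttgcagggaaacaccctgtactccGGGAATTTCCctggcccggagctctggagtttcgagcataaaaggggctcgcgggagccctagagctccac
Cxcl2: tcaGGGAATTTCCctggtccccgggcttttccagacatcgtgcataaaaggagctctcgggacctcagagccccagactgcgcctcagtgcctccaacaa
Cxcl3: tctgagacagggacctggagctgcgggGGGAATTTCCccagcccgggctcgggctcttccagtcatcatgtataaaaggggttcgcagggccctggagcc

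Each promoter in the RefSeq table spans 250 bases before to 50 after the start, and both strands were searched. Of the 50 genes of highest r, 36 matched the table with 39 promoters, and 4 promoters (10.3%) held that motif. It stood in 135 of 32851 promoters in all (0.411%) and in 0.469% of the promoters of ranked genes. The 4 were those of the 3 chemokine genes and Ms4a4a, a membrane protein gene of chromosome 19. Cxcl1, Cxcl2 and Cxcl3 are neighbouring relatives and are not independent cases. None of 43 promoters of the 50 genes of lowest r held it. The C/EBP motif TTGCNNAA stood in 7 of 39 promoters of the highest genes (17.9%), those of Retnlg, Mmp8, Lcn2, Saa3 and Adam8 among them. It stood in 7 of 43 of the lowest (16.3%), against 10.8% of all promoters and 8.75% of those of ranked genes. The STAT motif TTCCNGGAA stood in none of either end, in 1.15% of all and in 1.30% of those of ranked genes. A match is a run of letters and was not tested as a binding site. Of the 49 highest genes found in the gene table, 10 had another of them within 200 kb, including Cxcl5 beside the 3 chemokine genes, Clec4d beside Clec4e and Ifitm1 beside Ifitm6.

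Genes of the response to cytokine signals and of epithelial defence followed in part. Socs3, the feedback inhibitor of STAT3 signalling, had r = 0.88, Il4ra 0.87 and Nfkbia, the inhibitor of NF-kappaB, 0.79. Over 21 such feedback genes the median r was 0.61, and the transcription factor subunits Nfkb1 and Relb had r = 0.09 and -0.03. Of 16 ranked epithelial antimicrobial genes, 4 reached 0.8, against 2.25% of all ranked genes. They were Lcn2, Reg3g (r = 0.90), Reg3b (0.88) and Steap4 (0.82). Reg3b, a C-type lectin that kills bacteria, ran from 517 to 2698 CPM in controls (median 1519) and from 1342 to 9038 CPM in knockouts (median 3052). It was highest in control 3 and knockout 3 and lowest in the fifth library of each group, and the groups overlapped. Pigr, which carries IgA across the epithelium, had r = -0.68, and Lypd8, which keeps bacteria from the mucosa, -0.62.

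Most stromal genes had r above 0, and genes of matrix breakdown had the highest. All 20 genes of matrix remodelling had r above 0, and the median was 0.76. Of the 20, 9 had r of at least 0.8, against 2.25% of all ranked genes. Of all 13928 ranked genes, 6482 were above 0. Mmp13, a collagenase, had r = 0.91 and ran from 17.8 to 387 CPM in controls (median 50.5) and from 136 to 703 CPM in knockouts (median 384). Control 4 stood above the knockout median, and the other 5 controls lay under the lowest knockout. Mmp19 (r = 0.91), Adamts9 (0.89), Mmp3 (0.87), Mmp10 (0.86) and Mmp14 (0.86) followed. Selp, the P-selectin by which venules catch leukocytes, had r = 0.92 and ran from 5.12 to 45.3 CPM in controls (median 10.8) and from 22.4 to 97.2 CPM in knockouts (median 50.3). It was lowest in control 5 and knockout 4 and highest in control 4 and knockout 2.

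Over 16 endothelial genes the median r was 0.66 and all were above 0, with Ackr1, a venular chemokine receptor, at 0.84. Of 22 fibroblast genes 21 were above 0 (median 0.65), with Pdgfra and Col4a1 at 0.81 and Postn at -0.15. All 13 enteric nerve and glia genes were above 0 (median 0.57), with the neuropeptide gene Vip at 0.86 and the glial filament gene Gfap at 0.77. Vip ran from 32.2 to 80.03 CPM in controls (median 48.04) and from 84.5 to 183 CPM in knockouts (median 127), so its groups did not overlap. Smooth muscle genes went the other way, with a median of -0.58 over 15 genes.

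Several of the genes of lowest r are known from epithelial cells. Clic6, a chloride intracellular channel family member, had the lowest r, -0.95 (rho = -0.94, and -0.96 without control 4 and knockout 2), with a slope of -0.37 ± 0.04 (SE). It ran from 20.4 to 44.7 CPM in controls (median 35.7) and from 9.34 to 25.7 CPM in knockouts (median 17.96), highest in the fifth library of each group. Eno3, the muscle-type enolase of glycolysis, had r = -0.93 and the steepest slope of the 20 lowest genes, -0.52 ± 0.07 (SE). It ran from 17.3 to 77.5 CPM in controls (median 36.03) and from 4.11 to 19.9 CPM in knockouts (median 7.19), and only knockout 5 overlapped the controls. Ctse, an aspartic protease, ran from 13.03 to 57.4 CPM in controls (median 24.0) and from 3.87 to 16.4 CPM in knockouts (median 13.4), with r = -0.88.

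The slopes of the lowest genes were smaller than those of the highest: the median slope of the 50 lowest was -0.17 and that of the 50 highest 0.48. Spint2, a protease inhibitor of epithelial surfaces, had r = -0.90 but a slope of -0.11 ± 0.02 (SE), running from 434 to 654 CPM in controls (median 559.99) and from 455 to 559.5 CPM in knockouts (median 466). Ihh, the hedgehog ligand that colonocytes send to the mesenchyme, had r = -0.87, and ran from 33.1 to 77.2 CPM in controls (median 53.2) and from 21.3 to 49.6 CPM in knockouts (median 30.4). Klb, the co-receptor of endocrine FGF hormones, had r = -0.92, Eppk1, a cytoskeletal linker of epithelia, -0.92, Ano1, a chloride channel of pacemaker cells, -0.91, the ketone-using enzyme Oxct1 -0.88, and Ddc, which forms serotonin and dopamine, -0.87. Hmcn1, a matrix protein, had r = -0.93 but rho = -0.78.

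Lists of epithelial genes lay on both sides of 0. None of 20 absorptive colonocyte genes, 16 goblet cell genes or 16 stem cell and Wnt genes had r of -0.8 or less. Of all ranked genes 0.495% did. The medians of these lists were -0.21, -0.41 and -0.56. Aqp8, a water channel of surface colonocytes, had r = -0.73 and ran from 261 to 657 CPM in controls (median 365) and from 109.8 to 421 CPM in knockouts (median 181), while Krt20 and Car1 had r = 0.46 and 0.42. Axin2, a Wnt target, had r = -0.70 and ran from 13.4 to 25.2 CPM in controls (median 22.3) and from 2.18 to 17.5 CPM in knockouts (median 9.86). Control 4 was the lowest control for both genes. Among goblet genes Atoh1, the secretory lineage factor, had r = -0.69 and Muc2, the gel-forming mucin, -0.40. Prom1 was an exception among the stem cell genes at r = 0.75. Of 17 ranked genes of epithelial repair, 14 were above 0 and the median was 0.47. Of these 17, only Il33 and Plaur, the urokinase receptor, reached 0.8, against 2.25% of all ranked genes. Both stand on other lists too. The enteroendocrine and tuft cell list had a median of 0.07 over 14 genes.

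Interferon-stimulated genes ran against the score in 16 of 18 cases, with a median r of -0.50 (-0.32 in controls alone and -0.64 in knockouts alone). Of all 13928 ranked genes, 7446 had r below 0. Rsad2, an antiviral enzyme, ran from 14.7 to 53.2 CPM in controls (median 27.0) and from 7.32 to 79.3 CPM in knockouts (median 21.7), with r = -0.69 (-0.57 without control 4 and knockout 2). Irf7, a transcription factor of the interferon response, ran from 159 to 372 CPM in controls (median 232) and from 148 to 694 CPM in knockouts (median 183), with r = -0.66. For both genes the fifth library of each group, the one with the lowest score, was the highest. The pair left out above holds neither of these libraries. On the log2(CPM + 1) scale the list's mean level was 7.67 in knockout 5, against 5.31 to 6.75 in the other knockouts. Among controls, control 2 (6.63) and control 5 (6.60) were highest. The guanylate-binding protein gene Gbp5 (r = 0.42) and Cxcl10 were above 0, and Gbp2 lay at -0.01.

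Lymphocyte genes showed little relation as lists. The median r was -0.17 over 17 T and natural killer cell genes, 0.02 over 14 B and plasma cell genes and -0.12 over 8 genes of MHC class II. Foxp3, the factor of regulatory T cells, had r = 0.78, Ctla4 0.73 and Il2ra 0.71, against -0.58 for Cd8a. Foxp3 was low throughout, from 0.920 to 2.39 CPM in controls (median 1.30) and from 1.93 to 3.87 CPM in knockouts (median 3.21). Tnfrsf17, the plasma cell receptor BCMA, had r = -0.78 and Jchain -0.47.

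Metabolic lists differed in direction. All 23 respiratory chain genes and all 23 sterol and fatty acid synthesis genes had r below 0, with medians of -0.40 and -0.41. None was at -0.8 or less, where 0.495% of all ranked genes lay. Of all 13928 ranked genes, 7446 were below 0. The respiratory chain median was -0.54 in controls alone and -0.22 in knockouts alone. For sterol and fatty acid synthesis it was -0.63 and -0.05. Sdha, a subunit of complex II, had r = -0.65 with a slope of only -0.05, and Scd2, a fatty acid desaturase, r = -0.72 with a slope of -0.34. Of 25 genes of glycolysis and hypoxia, 3 reached r of 0.8, against 2.25% of all ranked genes. They were Slc16a3, the lactate exporter (0.87), Pfkfb3, an activator of glycolysis (0.85), and Adm, a vasodilator peptide (0.82). The 21 genes of butyrate and fatty acid oxidation were split, with 11 above 0 and a median of 0.02 (-0.40 in controls alone and 0.21 in knockouts alone). Core glycolytic enzymes did not reach 0.8, with Tpi1 at 0.02, Gapdh at 0.28 and Ldha at 0.44.

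**Figure D3:**
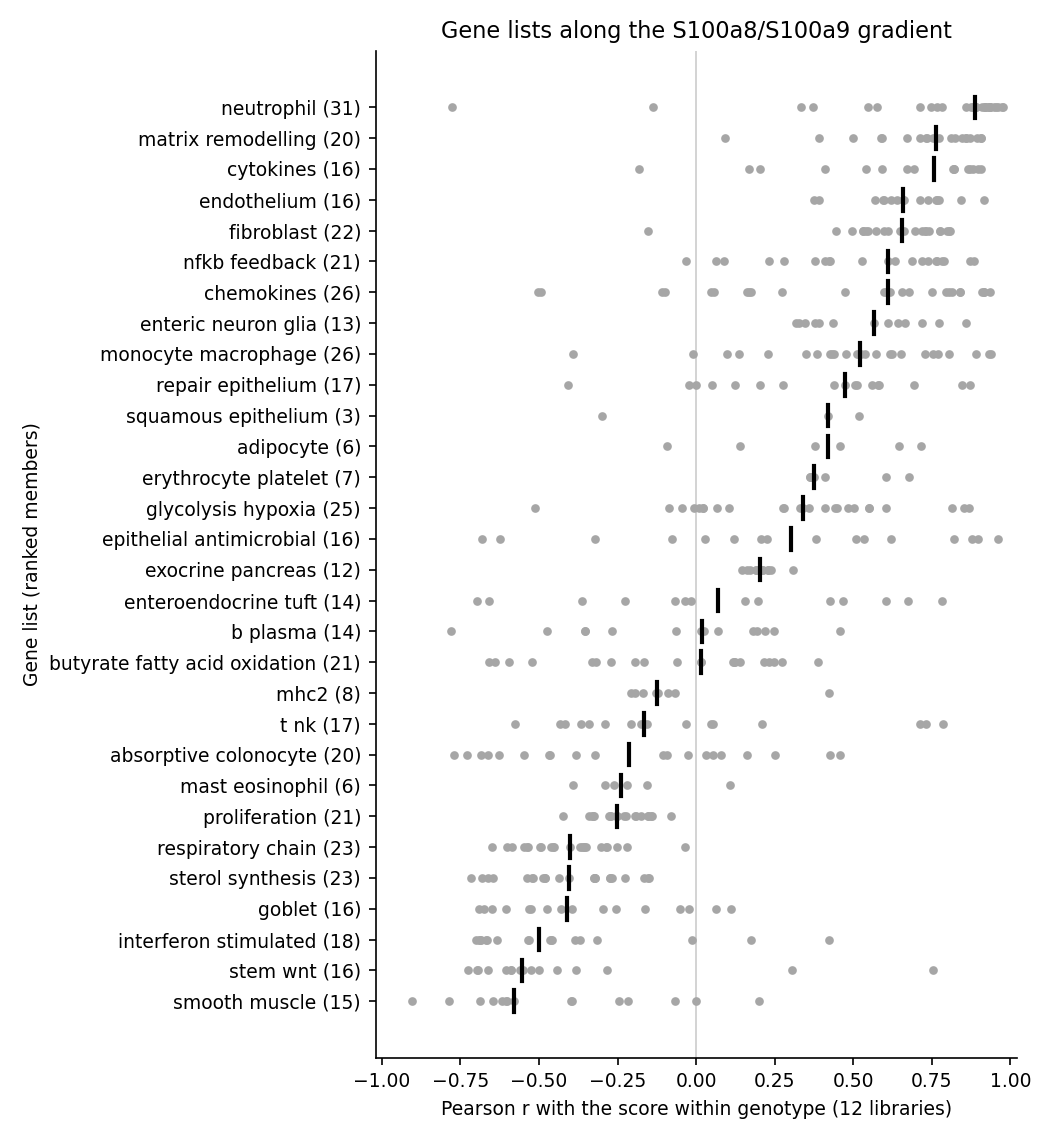
Pearson's r with the score over the 12 libraries, both minus genotype means, for each ranked member (grey points) of 30 gene lists, with the median as a black bar and the number of ranked members in parentheses. The neutrophil list is highest with a median of 0.89, and smooth muscle lowest with -0.58.

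The 2 genotypes were then set side by side. The 50 genes of highest r in the 6 controls alone had a median r of 0.80 in the 6 knockouts, where 46 were above 0 and 25 at 0.8 or more; of all ranked genes with a value in both, 6348 of 13927 were above 0 and 696 at 0.8 or more there. Chosen in knockouts and read in controls, the median was 0.83, with 47 of 50 above 0 and 27 at 0.8 or more; of all genes 8140 were above 0 and 914 at 0.8 or more in controls. The 50 of lowest r in controls had a median of -0.15 in knockouts, where 28 of 50 were below 0 and 7 at -0.8 or less, against 7579 and 821 of all 13927. The 50 of lowest r in knockouts had a median of 0.12 in controls, where 23 of 50 were below 0 and 5 at -0.8 or less, against 5787 and 443 of all 13927. The shares below 0 were near those of all genes. Retnlg had r = 0.98 in each genotype, and Clic6 -0.92 in controls and -0.98 in knockouts. These are descriptions over 6 libraries each, and the difference between the ends was not tested.

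**Figure D4:**
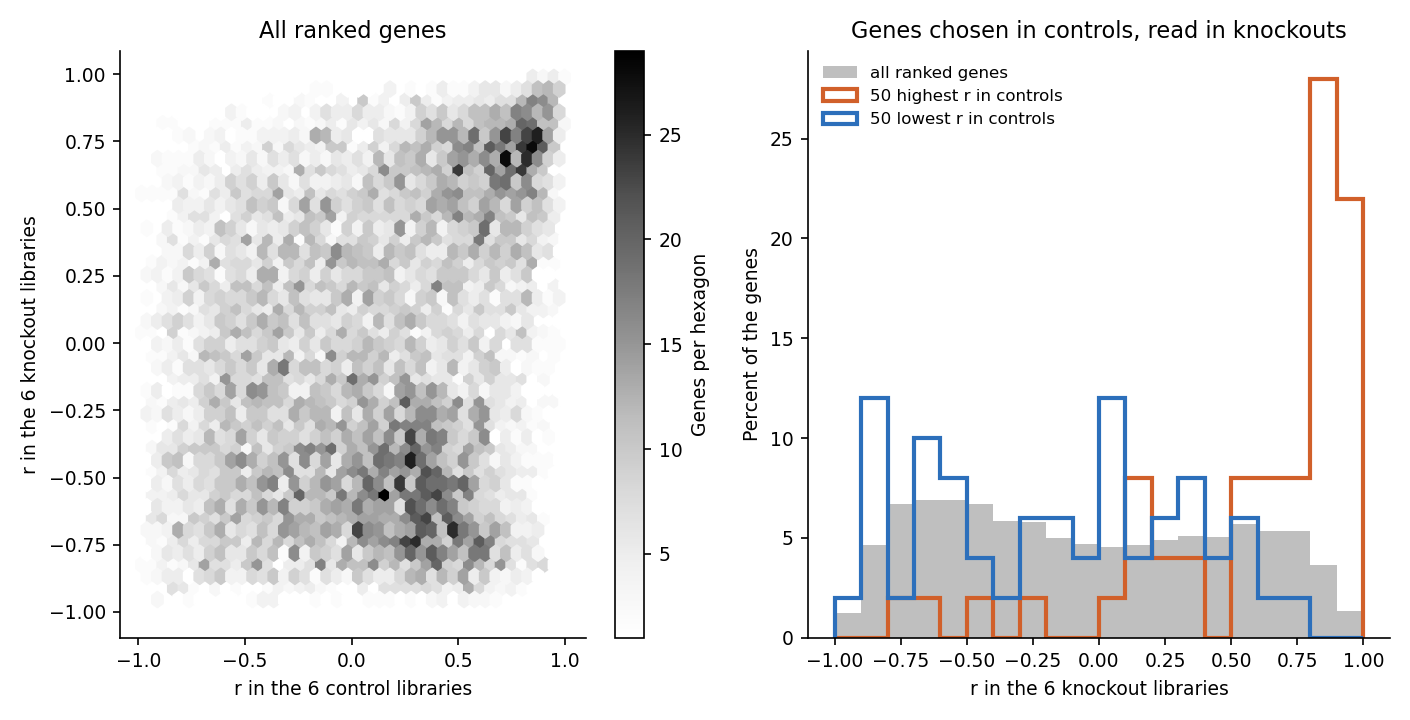
Left, r of each ranked gene in the 6 control libraries against its r in the 6 knockout libraries, shaded by genes per hexagon. Right, percent of genes by r in knockouts, for all ranked genes (grey) and for the 50 genes of highest (orange) and lowest (blue) r in controls; the orange genes gather at the right with a median of 0.80, and the blue genes spread around a median of -0.15.

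Whether a gene followed the score with a different slope in knockouts than in controls was tested by the interaction term of edgeR's quasi-likelihood test over 14393 genes. No gene passed an adjusted p of 0.05 in either direction (0% and 0% of the genes tested), while 1213 had an unadjusted p under 0.05 (8.43%) and DESeq2 called 4 higher and 13 lower. The smallest p-values belonged to Krt90, a keratin (slope difference -1.67 ± 0.26 (SE), edgeR adjusted p = 0.482, 8.6e-05 to 0.998 over the alternatives), Ide, an insulin-degrading protease (-0.31 ± 0.06, adjusted p = 0.571), and Mrps22, a mitochondrial ribosomal protein (-0.37 ± 0.08, adjusted p = 0.571). Krt90 lay between 0.0614 and 5.67 CPM in controls and between 0.893 and 3.24 CPM in knockouts.

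Proliferation genes had the most members with an unadjusted p under 0.05 in this comparison. For all 21 the slope difference was below 0 (median -0.38), and for 12 its unadjusted p was under 0.05, against 3.88% of all genes tested in that direction, but none passed edgeR's adjusted p. Their median r was 0.40 in controls and -0.78 in knockouts. The value in controls leans on control 5, the control of lowest score. The list's mean level on the log2(CPM + 1) scale was 4.36 there, against 5.14 to 5.70 in the other controls. The r in controls without control 5 is not given here, so a rise with the score in controls is not shown. Mki67, a marker of cycling cells, ran from 105 to 321 CPM in controls (median 173) and from 50.1 to 273 CPM in knockouts (median 174), with r = 0.57 in controls and -0.79 in knockouts. Control 5 held the least Mki67 of the controls, and knockouts 2 and 3, of high score, the least of the knockouts. Over both genotypes together the list's median r of -0.25 became -0.62 without control 5, -0.43 without control 4, -0.10 without knockout 5 and -0.04 without knockout 3.

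Other lists leaned to one side in the same test with no member past edgeR's adjusted p. Over all genes 54.5% had a slope difference above 0, and 4.54% had an unadjusted p under 0.05 with a difference above 0. Smooth muscle genes had slope differences above 0 in 14 of 15, with 7 at an unadjusted p under 0.05, and median r of -0.86 in controls and -0.23 in knockouts. Tagln, a contractile protein, had r = -0.91 in controls and -0.20 in knockouts. Sterol synthesis genes were above 0 in 21 of 23, with 8 at an unadjusted p under 0.05, glycolysis and hypoxia genes in 24 of 25, with 6, and respiratory chain genes in 23 of 23, with 1. Interferon-stimulated genes were below 0 in 18 of 18, with no member at an unadjusted p under 0.05. Neutrophil genes were split, with 15 of 29 tested above 0.

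The difference between genotypes was not used by the ranking and was tested for every gene with edgeR's quasi-likelihood test. At an adjusted p of 0.05, 4 genes were higher in knockouts (0.0278%) and 4 lower (0.0278%), and none of them was among the 50 of highest or lowest r. Without adjustment 22.6% of genes had p under 0.05. The 49 tested genes of the 50 of highest r were all above 0, with a median log2 difference of 1.57, and 45 had an unadjusted p under 0.05, against 13.1% of all genes in that direction; 45.05% of all genes were above 0. Of the 50 of lowest r, 48 were below 0 (median -0.45) and 35 had an unadjusted p under 0.05, against 9.48%. The score was itself higher in knockouts, so genes chosen for following it or running against it lean accordingly. They are not separate cases, and their counts here are a description. The counts of called genes rested on single libraries: without knockout 4 there were 870 higher and 402 lower, without control 4 726 and 279, without control 6 272 and 101, and without any other library none was higher and 2 to 3 lower. DESeq2 called 1095 and 424. In those settings genes at both ends of the ranking were called too: of the 50 of highest r, 34 were higher without knockout 4, 44 without control 4, 12 without control 6 and 40 with DESeq2, and of the 50 of lowest r, 16, 20, 5 and 21 were lower.

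Of the 4 genes higher in knockouts, Zbtb16 (r = 0.83), Dio2 (0.84) and Gpat3 (0.88) also followed the score within genotypes, and Pnrc1 did not (0.25). Dio2, which activates thyroid hormone, lay between 3.13 and 15.5 CPM in controls (median 7.01) and between 24.7 and 90.0 CPM in knockouts (median 57.01), so the groups did not overlap. Its log2 difference was 2.66 ± 0.42 (SE, edgeR adjusted p = 0.0425, 2.98e-08 to 0.259 over the alternatives). Of the 4 lower genes, Pck1 had r = -0.34, the sterol synthesis genes Hmgcs1 and Lss -0.48 and -0.15, and the chemokine gene Cx3cl1 -0.10. These values join genotypes that differed. In controls alone r was -0.77 for Pck1, -0.94 for Hmgcs1, -0.51 for Lss and -0.37 for Cx3cl1. In knockouts alone it was -0.005, 0.26, 0.59 and 0.24. Pnrc1 had r = -0.17 in controls and 0.64 in knockouts.

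With the score as a covariate, genotypes were compared at equal S100a8 and S100a9 levels. The score itself differed between genotypes, so the 2 terms share part of the difference. The genes at the ends of the ranking were chosen by their r with this same score. A smaller difference once the score is in the model follows from that choice. So does a smaller spread around the fit, which favours small p-values. Their counts set against the shares of all genes therefore cannot show an excess, and their values here are a description. Only Pck1 was then called (1 gene lower, 0.00695%, and 0% higher), at a log2 difference of -3.35 ± 0.38 (SE, edgeR adjusted p = 0.0132, 1.76e-15 to 0.554 over the alternatives); 5.02% of genes had an unadjusted p under 0.05. DESeq2 called 30 higher and 7 lower. Of the 49 genes of highest r, 41 were above 0 with a median of 0.45, against 1.57 before, and 25 had an unadjusted p under 0.05, against 3.18% of all genes in that direction. Of the 50 of lowest r, 35 were below 0 with a median of -0.05, and 5 had an unadjusted p under 0.05, against 1.85%; over all genes the median was -0.01. The median SE rose from 0.155 to 0.187. Pck1 lost its call without control 4, control 6, knockout 4 or knockout 5.

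For single genes the values before and after the score entered the model were as follows, with the same limit. For Retnlg the log2 difference went from 2.14 ± 0.81 (SE) to -0.07 ± 0.25, and for Mmp8 from 2.82 ± 0.94 to 0.39 ± 0.24. Chil3 kept 2.12 ± 0.30 of 3.78 ± 0.70 and had the smallest p of the higher genes (edgeR adjusted p = 0.0742, 1.06e-08 to 1 over the alternatives). It ran from 3.74 to 38.03 CPM in controls (median 7.88) and from 48.4 to 444 CPM in knockouts (median 117), without overlap. Lcn2 kept 1.22 ± 0.25 of 3.01 ± 0.70 and Saa3 1.08 ± 0.29 of 2.66 ± 0.67, with edgeR adjusted p of 0.374 and 0.695. Cry1, a repressor of the circadian clock, ran against the score (r = -0.75). It was higher in knockouts by 0.57 ± 0.17 before and by 0.90 ± 0.15 at equal score (edgeR adjusted p = 0.177 at equal score, 0.000676 to 1 over the alternatives). Its slope was -0.06 in controls and -0.28 in knockouts, while the comparison at equal score fits 1 slope to both. Among lists, neutrophil genes went from a median difference of 1.57 to 0.24, cytokines from 1.61 to 0.60, matrix remodelling from 1.46 to 0.60 and sterol synthesis from -0.69 to -0.48, and interferon-stimulated genes from 0.16 to 0.73.

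**Figure D5:**
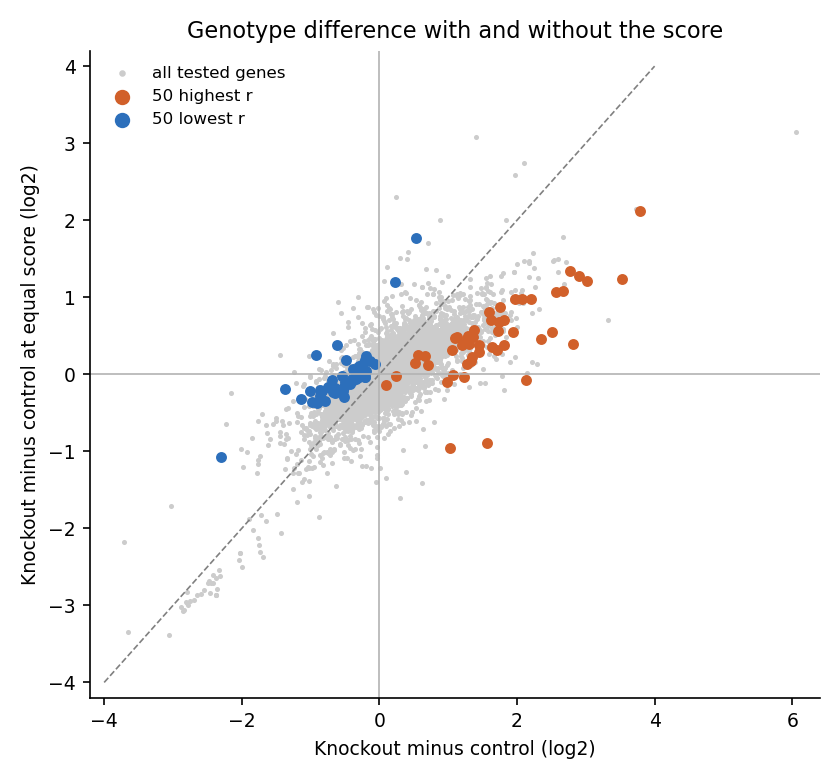
Log2 difference between knockouts and controls per gene (horizontal) against the same difference with the score as a covariate (vertical), for all tested genes (grey) and the genes of highest (orange) and lowest (blue) r. The orange genes lie below the dashed line of equal values, with medians of 1.57 and 0.45 on the 2 axes.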

How the data were processed

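Colon RNA of 12 mice was sequenced, 6 knockout and 6 control, with group and replicate number read off the library names in the labels. The authors deposited 1 table of 21899 genes with whole-number read counts per library and TPM per library, per the file headers; counts were used as deposited and TPM in 1 alternative only. The deposited log2 fold changes and p-values of the authors were not used. The submitters' processing notes list the builds GRCm38, mm10 and mm39; the aligner, the counter, the use of strand and settings are not stated there (aligner: not given in the sources used here). Values of overlapping genes and close copies are therefore uncertain.

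The ranking used library-size CPM, log2(CPM + 1) and a mean of at least 1 CPM, in Python 3.11.15. Tests used edgeR 4.0.16 in R 4.3.3 on counts (filterByExpr with minimum count 10 and minimum total 15, TMM scaling, glmQLFit and glmQLFTest, Benjamini-Hochberg over 14393 genes, threshold 0.05). S100a8 and S100a9, which form the score, were fitted with the rest and left out of counts of called genes and of medians over all genes. DESeq2 1.42.0 was an alternative, and the ranking, the list medians and the tests were recomputed under each setting given at the end. The SE was derived from the log2 difference and the F statistic. Of 552 genes on 30 lists, 548 were in the table. The members, lists and named genes were chosen with earlier results of these data known. Named by rule were the 20 genes at each end of the ranking (without predicted genes and receptor segments), the 3 members of largest absolute r and the 2 of highest mean CPM per list, all neutrophil genes (1 is not reported here), and the genes of smallest p per test; other list members, and Ms4a4a and Ifitm6, were named after their values were seen. Each of 66 combinations of 2 libraries differed by more than counting noise, with a chi-square per gene of at least 18.8. In data simulated from these libraries with 200 of 14393 genes changed, edgeR recovered 73% of genes changed by a log2 of 1 and 97% of those changed by 2 in the comparison of genotypes, 59% and 98% at equal score, and 91% and 99% for a slope difference. Unchanged genes called in these 3 comparisons numbered 5, 7 and 14. The simulated spread was that left after fitting the score, and no score gradient was simulated. These percentages therefore cannot stand for recovery in the real comparison of genotypes.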

Additional observations from a re-analysis of the deposited data

Results flagged for a closer look

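A value was marked where the highest or lowest library of a group of 6 stood apart, by a gap to its nearest neighbour that, as a share of the group's range on the log2(CPM + 1) scale, passed Dixon's 95% critical value. Of 438 groups examined, 19 were marked; chance marks about 1 group in 20. Control 4, the control with the highest score, accounted for 8. It was highest for Ngp (gap 0.8735 of the range), Fpr2 (0.7556), Mrgpra2b (0.7511), Socs3 (0.7416), Wfdc21 (0.689), Cstdc4 (0.6862) and Asprv1 (0.6441), and lowest for Muc2 (0.7129). Its Ngp level of 4.09 CPM compares with a control median of 0.214 CPM.

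Knockout 2, the library with the highest score, was highest for the stromal genes Col3a1 (0.7723) and Vwf (0.6607), for Gapdh (0.6639) and for the mean level of the fibroblast list (0.6494). Col3a1 reached 5556 CPM there, against a knockout median of 2492 CPM. Knockout 3 was lowest for the mitotic genes Ccnb2 (0.7033) and Plk1 (0.639) and for the lipid synthesis gene Acly (0.6531), and highest for the desmosome gene Dsg3 (0.7219).

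Control 5, the library with the lowest score, was highest for the gut hormone gene Pyy (0.9013), at 106 CPM. Control 1 was highest for Hadha (0.6428), and control 2 had the lowest mean level of the enteroendocrine and tuft cell list (0.6757). The genes of neutrophils marked in control 4 follow the score by the ranking, so their place there is a description.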

How the results depend on the processing

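The 313 genes with r of at least 0.8 became 199 at a mean of at least 10 CPM, where fewer genes were ranked, 514 with a score of 7 other neutrophil genes, 914 in controls alone, 696 in knockouts alone, 176 without control 4 and knockout 2, and 227 to 453 with 1 library left out. The 69 genes at -0.8 or less became 443, 821 and 123 in the same 3 subsets and 77 to 129 with 1 library left out, the highest without control 5 (117) and knockout 5 (129). Of the 50 highest and 50 lowest genes, 27 and 25 were shared without control 4 and knockout 2, 31 and 39 with the 7-gene score, 46 and 33 with TMM scaling, 15 and 8 in controls alone, and 20 and 6 in knockouts alone. Of the medians of r per list, 220 of the values under other settings moved and 470 did not; over all settings the median lay between 0.83 and 0.94 for neutrophil, 0.22 and 0.78 for monocyte and macrophage, -0.64 and -0.13 for interferon-stimulated, -0.76 and -0.22 for respiratory chain, -0.53 and -0.01 for absorptive colonocyte and -0.78 and 0.40 for proliferation genes. The score difference lay between 1.78 and 2.60 with 1 library left out. Genes higher and lower between genotypes were 1095 and 424 with DESeq2, 33 and 19 with DESeq2's size factors, 0 to 870 and 2 to 402 with 1 library left out; at equal score 30 and 7 with DESeq2 and 0 to 1 in each direction with 1 library left out; and for the slope difference 4 and 13 with DESeq2 and 0 to 1 in each direction with 1 library left out. The cause was not tested.

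Same-numbered libraries did not deviate together (r between -0.55 and 0.10 over the 6 numbers). The labels do not say whether the numbers pair the mice, and these values cannot exclude a pairing. With the replicate number as a block, the difference of the score between genotypes, 2.11, had an exact sign-flip p of 0.09375, 1302 genes reached r of 0.8 and 649 reached -0.8, with 7 of the 50 highest and 11 of the 50 lowest genes shared, 0 genes were higher and 1 lower between genotypes, and 0 were lower at equal score.

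With 6 libraries a group, r within a genotype is imprecise, and genes near 1 CPM rest on few counts.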
